A study of Mus musculus with 10 samples.

Results

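The collagen chains other than the ubiquitous alpha 1 and alpha 2 chains of collagen IV were followed in the endothelium of lymphatic vessels (lymphatic endothelial cells, LEC), sorted by flow cytometry from mouse MT-ret melanomas. Members were the genes of the deposited table whose whole symbol reads Col, a number, a and a number, leaving out Col4a1 and Col4a2. They numbered 41 of 23510 genes, and 34 of them had 10 or more counts in at least 5 libraries. Tumour fragments were implanted in the flank of C57BL/6N mice, which received by intraperitoneal injection either control IgG (5 mice) or an antibody against angiopoietin-2 (anti-Ang2, 5 mice) and were killed 12 hours later. Ang2 binds the receptor Tie2 on endothelium. With 1 library per mouse, from 0.5 ng of RNA, n is 5 in either group throughout, and both groups bore the same tumour. No source used here gives the age or sex of the mice or the surface markers used for the sort.

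Collagens are secreted or membrane-bound proteins in which 3 chains wind into a triple helix. Fibril-forming types give tissue its tensile strength, fibril-associated types decorate those fibrils, network types build basement membranes, and transmembrane types sit in the plasma membrane with a collagenous ectodomain. Initial lymphatic capillaries have a thin, discontinuous basement membrane, whereas collecting lymphatics are wrapped in a fuller one. Levels are given as CPM, counts relative to the size of the library and scaled between libraries, for comparisons of libraries, and as FPKM, which divides by gene length, for comparisons of genes.

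Libraries held 38090933 to 83850341 gene counts. Defining LEC transcripts were present in all 10 libraries, with Prox1, the lineage transcription factor, at 980 to 1390 CPM, Lyve1 at 4305 to 6187 CPM and Flt4 at 1987 to 3683 CPM. Transcripts of other cells were present too. The summed CPM of 12 melanoma markers ran from 269 to 1862 in IgG and from 1134 to 5580 in anti-Ang2 libraries, with anti-Ang2 1, 2 and 3 the highest (5580, 3976 and 4573). An exact permutation test of this sum, two-sided, gave p = 0.0476, or 0.0762 adjusted over 8 marker lists, and 12 of 12 markers had the higher mean in anti-Ang2. That of 11 fibroblast markers found in the table ran from 85.9 to 282 in IgG and from 193 to 693 in anti-Ang2 libraries (exact p = 0.0476, adjusted p = 0.0762), and 3 of the 11 had the higher mean in anti-Ang2. Decorin (Dcn) alone took 65.4% to 95.6% of the fibroblast sum, and without it the sum was 8.30 to 38.2 CPM in IgG and 18.9 to 61.9 CPM in anti-Ang2 libraries. The defining fibroblast genes Pdgfra and Dpt were at 0 counts in 4 and 6 of the 10 libraries. The sum of 10 blood endothelial markers was 4791 to 7120 CPM in IgG and 3519 to 5609 CPM in anti-Ang2 libraries (exact p = 0.0159, adjusted p = 0.0762), lower on average after anti-Ang2. Yet 5 of the 10 had the higher mean in anti-Ang2. The fall of the sum lay mainly in Plvap (means 4022 and 2216 CPM) and Cldn5 (1655 and 1279 CPM). The sum of 10 pericyte and smooth muscle markers was 60.7 to 242 CPM in IgG and 155 to 444 CPM in anti-Ang2 libraries (exact p = 0.0317, adjusted p = 0.0762). Of the 10, 4 had the higher mean in anti-Ang2. The rise of the sum lay mainly in Cspg4 (means 53.2 and 172 CPM), which was highest in anti-Ang2 1, 2 and 3 (274, 203 and 231 CPM). Pdgfrb (8.15 and 4.69 CPM) and Rgs5 (7.83 and 3.29 CPM) had lower means after anti-Ang2. The sums of LEC markers (18709 to 22135 and 15495 to 20616 CPM) and of macrophage and monocyte markers (52.0 to 197 and 69.8 to 265 CPM) both had an adjusted p of 0.172. Of the 11 LEC markers, 3 had the higher mean in anti-Ang2. Ccl21a (means 883 and 379 CPM, edgeR adjusted p = 0.00447) and Foxc2 (263 and 127 CPM, 0.00545) were lower after anti-Ang2, so the LEC markers were not all unchanged. In bulk libraries fewer cells of a type and less RNA per cell cannot be told apart.

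Collagen XVIII dominated the set. Col18a1, whose C-terminal fragment is the angiogenesis inhibitor endostatin, averaged 238 FPKM over the 10 libraries and took 56.0% to 71.1% of the summed FPKM of the 41 chains. The next in order were Col23a1 (20.9 FPKM), Col4a5 (17.3) and Col16a1 (15.7), followed by Col1a1 (8.84), Col3a1 (8.72), Col5a2 (8.29), Col13a1 (6.84), Col8a1 (6.23) and Col5a3 (6.14). Together the 41 chains took 0.131% to 0.359% of all counts in a library. Col4a1 and Col4a2, at 684 and 388 FPKM, took 0.530% to 0.867% of counts in the same libraries. The fibrillar chains that make up the bulk of connective tissue were thus below 9 FPKM on average over the 10 libraries. They were not minor in every library. Col1a1 and Col3a1 averaged 14.1 and 13.0 FPKM in IgG, reaching 44.5 and 32.6 FPKM, and 3.62 and 4.41 FPKM in anti-Ang2 libraries.

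Of the 33 chains that passed the expression filter of the test, 1 was lower and 0 were higher after anti-Ang2 (edgeR, adjusted p under 0.05), against 2.8% of all 16240 tested genes lower and 1.34% higher. At an unadjusted p under 0.05 the counts were 4 lower and 4 higher, against 1478 and 1484 of all 16240 tested genes. DESeq2 called 2 lower and 2 higher, and limma-voom 2 lower and 1 higher. Of the same 16240 genes DESeq2 called 879 lower and 806 higher, and limma-voom 780 and 670. The median log2 fold change was -0.03 for the chains and 0.01 for all tested genes. The chains were measured with less precision than most genes, with a median SE of 0.59 on the log2 scale against 0.20 for all tested genes. Fold changes ran from -2.38 to 2.24, and 16 were positive and 17 negative. In 2 of the 33 chains the groups lay apart, both lower after anti-Ang2, while 3.76% of all tested genes lay wholly lower and 2.34% wholly higher. Of the chains in the authors' deposited table, 2 were lower and 4 higher at an adjusted p under 0.05, among 36 with an adjusted p. The lower chains there were Col23a1 and Col5a2, and the higher were Col9a1, Col9a3, Col13a1 and Col22a1. The share over all genes of that deposited table was not counted.

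By structural class, the call of Col23a1 was 1 of the 3 tested transmembrane chains (median log2 fold change -0.35), and 0 chains were called by edgeR in any other class. The median was -0.04 for the 10 tested fibril-forming chains of 11, with Col5a2 lower by DESeq2 and by limma-voom and 1 chain higher and 3 lower at an unadjusted p under 0.05. It was 0.15 for the 6 tested fibril-associated chains of 8, with Col9a3 higher by DESeq2 and by limma-voom. The 4 minor collagen IV chains had a median of 0.56, the 4 tested chains of 7 with beaded filaments or von Willebrand domains -0.44, the 3 short-chain network chains -0.79 and the 2 multiplexins 0.08.

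**Figure D1:**
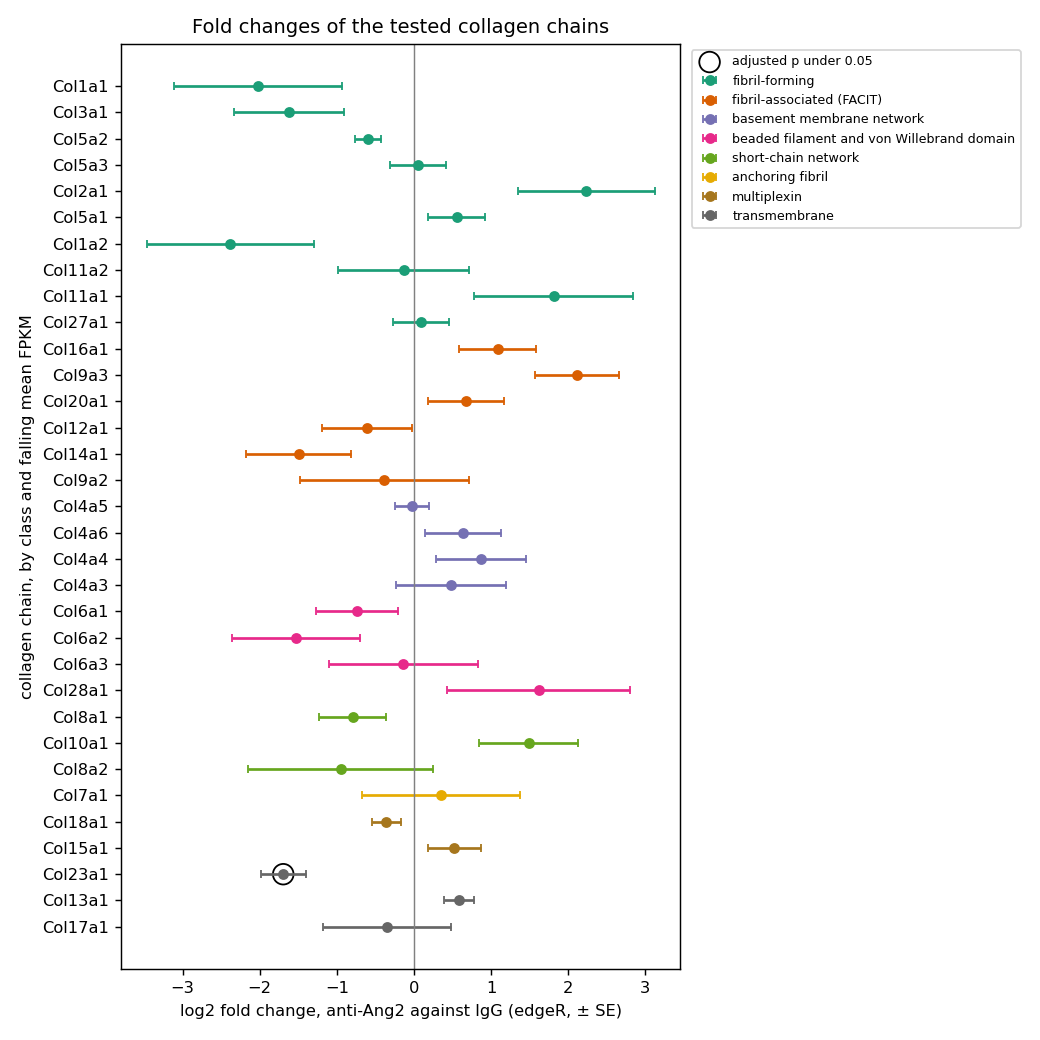
Log2 fold change of the 33 tested collagen chains, anti-Ang2 against IgG (edgeR; bars are the SE, n = 5 libraries per group), ordered by structural class and mean FPKM. Col23a1 at -1.70, ringed, is the chain past the threshold, and the wide bars of Col1a1, Col1a2 and Col2a1 reflect their spread between libraries.

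Col23a1 was the chain that fell. It encodes a transmembrane collagen with a short cytoplasmic tail that can be shed from the cell surface. Its levels were 151, 129, 283, 122 and 206 CPM in the IgG libraries and 51.2, 76.4, 70.8, 46.9 and 29.7 CPM in the anti-Ang2 libraries. Every anti-Ang2 library lay below every IgG library, and the gap between the groups ran from 76.4 to 122 CPM. The mean fell from 178 ± 67.0 to 55.0 ± 18.9 CPM (SD, n = 5), a log2 fold change of -1.70 ± 0.29 (SE) or 3.24-fold lower (edgeR adjusted p = 0.00728). The authors' deposited table gives a log2 fold change of -1.59 for it, with an adjusted p of 2.26e-07. DESeq2 as run here gave -1.69, and the deposited fold changes are on a smaller scale than those fitted here. With 1 library left out the log2 fold change stayed between -1.84 and -1.47 (adjusted p 0.00928 to 0.0239). It was -2.23 ± 0.39 (adjusted p = 0.0423) without anti-Ang2 1, 2 and 3, the libraries of highest melanoma sum, and -1.44 ± 0.29 (0.0221) without anti-Ang2 4 and 5. Anti-Ang2 1, 2 and 3 also held its highest anti-Ang2 levels. The larger fall without them follows from that choice. The call was lost, with a wider SE, when a marker sum entered the fit as a covariate. The log2 fold change was then -1.43 ± 0.36 with the fibroblast sum (adjusted p = 0.105), -1.62 ± 0.37 with that sum without Dcn (0.0507) and -1.48 ± 0.46 with the melanoma sum (0.195). The blood endothelial sum was also lower on average after anti-Ang2 (6319 ± 977 and 4141 ± 853 CPM), and its part in the level of Col23a1 was not tested. That fall lay mainly in Plvap and Cldn5, while 5 of the 10 markers had the higher mean in anti-Ang2.

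**Figure D2:**
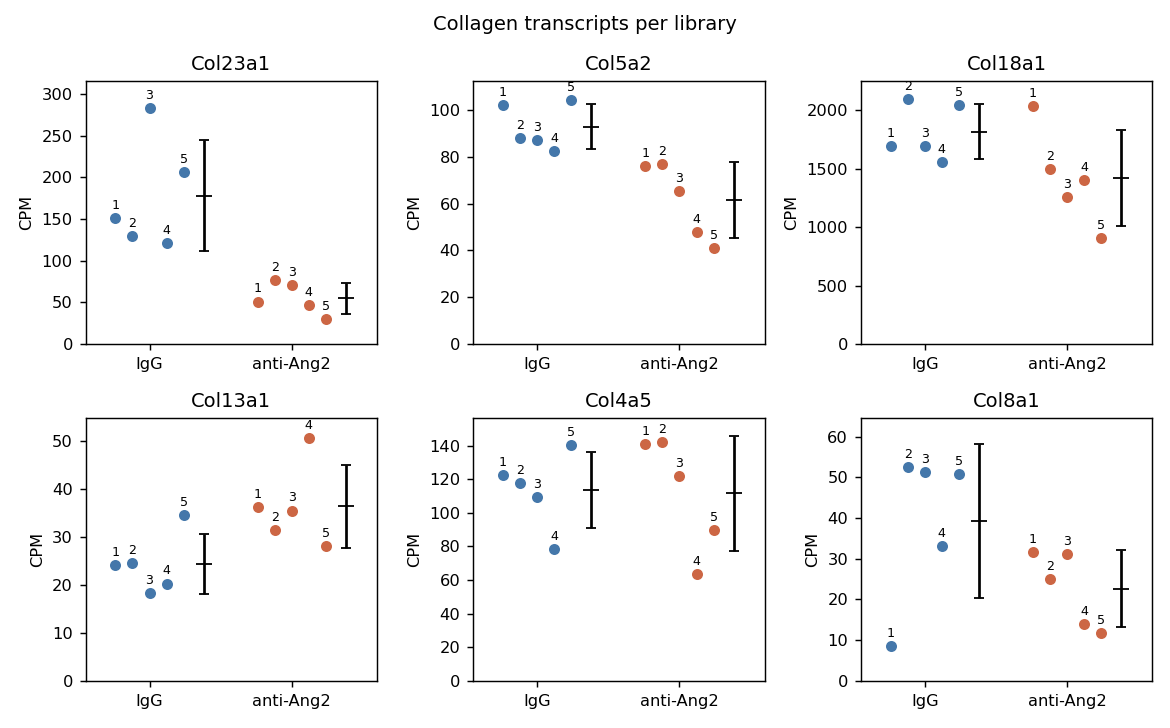
CPM of 6 collagen chains in each library (numbered points), with the mean and SD of each group of 5 in black. Col23a1 and Col5a2 are the chains whose groups do not overlap, while Col18a1, Col13a1, Col4a5 and Col8a1 overlap.

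In mm10, Col23a1 (ENSMUSG00000063564.13) spans chromosome 11 from 51289920 to 51583918 on the plus strand, exons, introns and untranslated regions included, and no other annotated gene overlaps it. The 250 bases before its start are printed because it is the chain whose level fell, beside those of 3 further chains described below: Col16a1, which is high in 3 anti-Ang2 libraries, and the head-to-head neighbours Col4a5 and Col4a6. Sequences are from RefSeq on GRCm38.p6, 5′ to 3′ on the strand of the gene, and capitals mark the GC box GGGCGG on either strand.
Col23a1, chr11:51289670-51289919 (plus strand): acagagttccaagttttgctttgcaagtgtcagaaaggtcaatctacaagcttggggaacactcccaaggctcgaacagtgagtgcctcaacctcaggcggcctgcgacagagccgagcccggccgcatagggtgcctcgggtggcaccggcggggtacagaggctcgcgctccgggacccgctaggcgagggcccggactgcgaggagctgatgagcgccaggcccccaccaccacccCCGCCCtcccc
Col16a1, chr4:130047590-130047839 (plus strand): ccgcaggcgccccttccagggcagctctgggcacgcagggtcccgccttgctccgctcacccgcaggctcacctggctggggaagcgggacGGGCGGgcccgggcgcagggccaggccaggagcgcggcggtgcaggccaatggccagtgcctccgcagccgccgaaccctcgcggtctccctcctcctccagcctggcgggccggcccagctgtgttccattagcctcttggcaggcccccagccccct
Col4a5, chrX:141475169-141475418 (plus strand): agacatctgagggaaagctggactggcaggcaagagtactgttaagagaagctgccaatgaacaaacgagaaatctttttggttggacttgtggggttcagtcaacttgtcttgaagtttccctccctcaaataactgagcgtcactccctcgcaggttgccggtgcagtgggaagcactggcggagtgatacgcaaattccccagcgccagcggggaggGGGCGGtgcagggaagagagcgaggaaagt
Col4a6, chrX:141474077-141474326 (minus strand): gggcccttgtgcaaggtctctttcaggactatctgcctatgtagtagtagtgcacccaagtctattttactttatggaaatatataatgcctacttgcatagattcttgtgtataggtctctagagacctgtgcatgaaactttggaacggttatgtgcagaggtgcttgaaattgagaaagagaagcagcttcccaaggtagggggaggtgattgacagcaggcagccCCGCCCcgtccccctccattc
Each of these windows held 1 GC box, a motif found in 32.7% of all 32851 RefSeq windows of this length. Of the 35 windows that belonged to 32 of the collagen chains, 60% held it. None of the 4 printed windows held TATAAA, the forkhead core GTAAACA, the E-box CACGTG or the SOX core ACAAAG on either strand, which were found in 12.4%, 3.17%, 6.02% and 16.5% of all windows. GC content was 66% for Col23a1, 75.6% for Col16a1, 54% for Col4a5 and 47.6% for Col4a6. The absence of a match says only that these letters are not in these windows.

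The other transmembrane chains did not pass the test. Col13a1, found at cell-matrix junctions and the neuromuscular synapse, was at 24.1, 24.6, 18.3, 20.3 and 34.5 CPM in IgG and at 36.2, 31.4, 35.5, 50.6 and 28.0 CPM in anti-Ang2 libraries. The groups overlapped through IgG 5 and anti-Ang2 2 and 5. Its log2 fold change was 0.58 ± 0.19 (edgeR adjusted p = 0.131), opposite in sign to that of Col23a1, and DESeq2 called it (0.59 ± 0.21, adjusted p = 0.0415). Col17a1, a hemidesmosomal chain of epithelia, was at 0.0256 to 1.06 CPM in all libraries (log2 fold change -0.35 ± 0.83). Keratinocyte markers were also near 0, with a sum of 1.02 to 3.84 CPM for the 5 found in the table. Col25a1, a neuronal chain, had counts in 2 libraries, IgG 4 with 58 and anti-Ang2 3 with 7, and was not tested.

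The chains of collagen V had unlike patterns. This minor fibrillar collagen starts and limits the assembly of collagen I fibrils, usually as a trimer of alpha 1 and alpha 2 chains. Col5a2, its alpha 2 chain, was at 102, 88.0, 87.3, 82.3 and 104 CPM in IgG and at 76.1, 76.7, 65.5, 48.0 and 41.2 CPM in anti-Ang2 libraries. The groups did not overlap, yet the log2 fold change of -0.59 ± 0.17 did not pass over all tested genes (edgeR adjusted p = 0.0778). DESeq2 (-0.58, adjusted p = 0.0181) and limma-voom (-0.49, 0.0478) called it. So did edgeR without anti-Ang2 1, 2 and 3 (-1.07 ± 0.14, 0.0323). Those libraries held its highest anti-Ang2 levels, so that call gives no further support. The melanoma sum as a covariate gave -0.85 ± 0.24 (adjusted p = 0.162) and the fibroblast sum -0.46 ± 0.23 (0.424).

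The partner chains of Col5a2 had no such separation. Col5a1 was at 19.1 to 54.8 CPM in IgG and at 70.7, 56.0, 62.2, 30.2 and 21.8 CPM in anti-Ang2 libraries. Its log2 fold change was 0.55 ± 0.37 in all libraries (edgeR adjusted p = 0.492), -0.64 ± 0.18 when the fit held the melanoma sum (0.162) and -0.34 ± 0.42 without anti-Ang2 1, 2 and 3 (0.741), so that its sign, on which the ratio of Col5a1 to Col5a2 also rests, changed with the fit. Col5a3, which can replace an alpha chain in the trimer, was at 28.5 to 49.2 CPM in IgG, whereas the anti-Ang2 libraries split into 53.1, 68.4 and 51.4 CPM in libraries 1, 2 and 3 and 15.9 and 18.1 CPM in libraries 4 and 5. Its log2 fold change was 0.05 ± 0.37 in all libraries and -1.24 ± 0.21 without anti-Ang2 1, 2 and 3 (adjusted p = 0.0403). Leaving out the libraries with its higher anti-Ang2 levels fixes that call, which supports nothing further. The FPKM ratio of Col5a1 to Col5a2 was 0.212, 0.703, 0.263, 0.592 and 0.290 in IgG and 1.05, 0.825, 1.07, 0.711 and 0.598 in anti-Ang2 libraries. Anti-Ang2 5 lay below IgG 2, and the other anti-Ang2 libraries lay above every IgG library. The difference of 1.17 in the mean log2 ratio gave a two-sided exact permutation p of 0.0159, or 0.0952 adjusted over the 6 pairs of chains that could be compared. In the other 5 pairs, such as Col1a1 to Col1a2 (difference 0.80, exact p = 0.127) and Col6a1 to Col6a2 (1.04, exact p = 0.206), the adjusted p was 0.214 or more.

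The main interstitial chains were spread widely between mice of the same group. Col1a1, Col1a2 and Col3a1 encode collagens I and III, the bulk of loose connective tissue, which fibroblasts mainly make. Col1a1 was at 26.2, 127, 5.30, 5.43 and 295 CPM in IgG and at 23.9, 24.5, 4.65, 55.7 and 4.49 CPM in anti-Ang2 libraries. IgG 2 and IgG 5 were the highest of the 10 libraries and anti-Ang2 4 came next. The log2 fold change was -2.02 ± 1.09 (edgeR adjusted p = 0.372), and 0.88 ± 0.89 (0.769) without IgG 2 and IgG 5. The same 3 libraries were the highest for Col3a1, at 40.1, 207, 19.8, 42.5 and 324 CPM in IgG and 54.7, 32.3, 20.6, 75.2 and 23.4 CPM in anti-Ang2. Its log2 fold change of -1.62 ± 0.71 (adjusted p = 0.253) was 0.27 ± 0.45 (0.879) without IgG 2 and IgG 5. Col1a2, at 230 CPM in IgG 5 and 76.8 CPM in IgG 2 and at 1.05 to 31.6 CPM in the other 8 libraries, went from -2.38 ± 1.08 (0.271) to 0.33 ± 0.88 (0.937).

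The tested chains of collagen VI, Col6a1, Col6a2 and Col6a3, which form beaded filaments around cells, had the same 2 libraries at the top. Col6a1, the most abundant of its class, was at 24.3 and 37.6 CPM in IgG 2 and IgG 5, lower in the other 3 IgG libraries and at 6.02 to 16.9 CPM in anti-Ang2 libraries (log2 fold change -0.74 ± 0.53, adjusted p = 0.530, and 0.13 ± 0.52 without IgG 2 and IgG 5). Col6a2 was at 20.2 and 26.9 CPM in IgG 2 and IgG 5 and at 0.653 to 7.14 CPM elsewhere. Col6a3 was highest in IgG 2 and IgG 5 too, at 16.2 and 12.0 CPM, and was at 0 counts in IgG 4. The fibroblast microfibril gene Mfap5 was highest in the same libraries, at 3.37 CPM in IgG 2 and 3.61 CPM in IgG 5, followed by 2.06 CPM in anti-Ang2 4 and 0 to 1.33 CPM in the others. Pdgfra was at 0.978 CPM in IgG 2, 2.23 CPM in IgG 5, 1.47 CPM in anti-Ang2 4, 1.02 CPM in anti-Ang2 3 and 0 to 0.499 CPM in the others, and the pericyte genes Pdgfrb and Rgs5 were highest in IgG 2 and IgG 5. Other genes of both lists did not have this order. The sum of all fibroblast markers, most of it Dcn, had IgG 5 as its lowest library (85.9 CPM), and the fibroblast gene Prrx1 was at 7.49 CPM in IgG 5 and 14.6 CPM in IgG 2 against 55.5, 37.3 and 44.7 CPM in anti-Ang2 1, 2 and 3. In the pericyte list Cspg4, Kcnj8 and Abcc9 had higher means in anti-Ang2 (53.2 and 172, 23.4 and 62.3, and 19.3 and 38.1 CPM). Of these Kcnj8 passed the test (edgeR adjusted p = 0.00545), and Cspg4, like the melanoma sum, was highest in anti-Ang2 1, 2 and 3. The part of fibroblast or pericyte RNA in these collagen values was not tested.

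**Figure D3:**
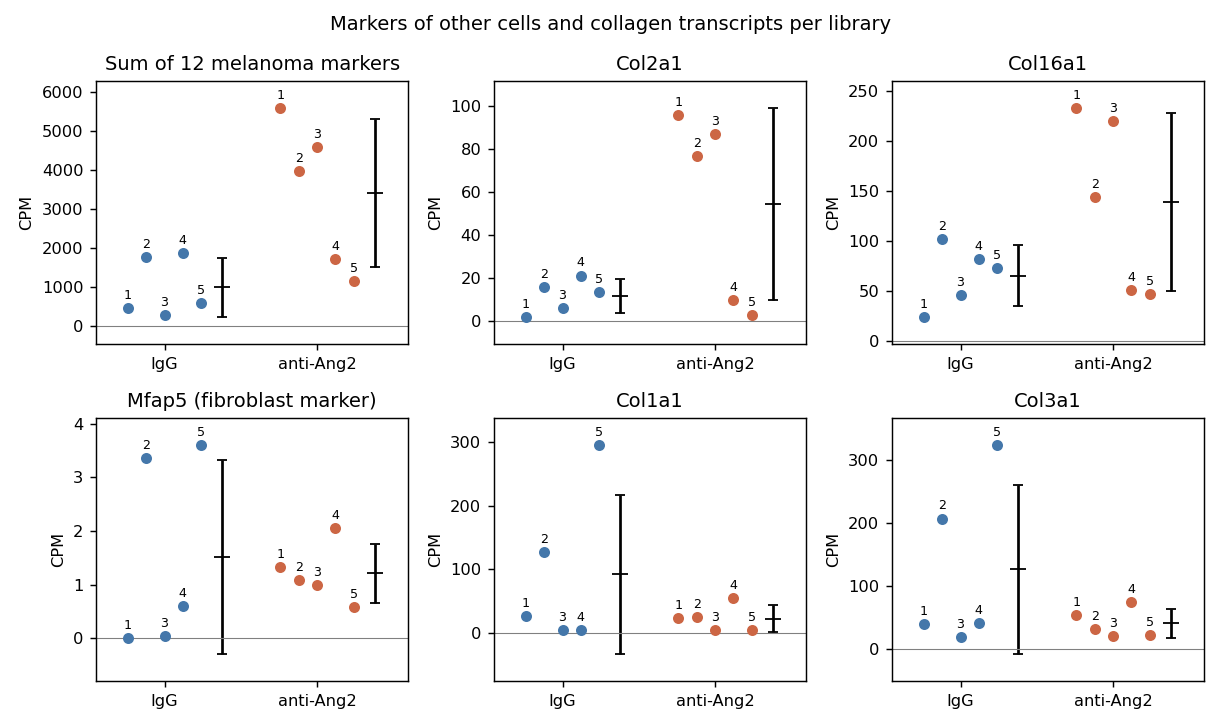
CPM per library (numbered points) with the mean and SD of each group of 5 in black. In the upper row, the sum of 12 melanoma markers, Col2a1 and Col16a1 are highest in anti-Ang2 1, 2 and 3. In the lower row, Mfap5, 1 of the 11 fibroblast markers, Col1a1 and Col3a1 are highest in IgG 2 and IgG 5, an order that the fibroblast markers Dcn and Prrx1 do not share.

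A further set of chains, chosen after their values were seen except for Col16a1, was high in anti-Ang2 1, 2 and 3. Of these, Col2a1, Col16a1, Col10a1 and Col11a1 were not high in anti-Ang2 4 and 5, while Col9a3 was high in anti-Ang2 4 as well. Col2a1 is the fibrillar chain of cartilage, Col11a1 its minor fibril partner, Col10a1 the network chain of hypertrophic cartilage, and Col9a3 and Col16a1 are fibril-associated chains. Col2a1 was at 1.70, 15.9, 5.76, 21.1 and 13.2 CPM in IgG and at 95.9, 77.0, 87.1, 9.43 and 2.48 CPM in anti-Ang2 libraries. Col16a1 was at 24.3, 102, 46.6, 82.7 and 72.9 CPM in IgG and at 233, 144, 220, 51.7 and 47.7 CPM in anti-Ang2 libraries. In both genes anti-Ang2 1, 2 and 3 lay above every IgG library and anti-Ang2 4 and 5 lay within the IgG range. Neither passed in all libraries, at log2 fold changes of 2.24 ± 0.88 for Col2a1 (edgeR adjusted p = 0.200) and 1.08 ± 0.49 for Col16a1 (0.274). Col10a1 was at 0.818 to 6.10 CPM in IgG and at 13.8, 10.6, 14.0, 2.73 and 3.14 CPM in anti-Ang2 libraries (1.49 ± 0.64, 0.242). Col11a1 was at 0 to 3.99 CPM in IgG and at 11.7, 7.90, 14.96, 0.419 and 1.79 CPM in anti-Ang2 libraries (1.81 ± 1.03, 0.401). Col10a1 lies on the opposite strand to Nt5dc1, whose span it overlaps. The libraries do not mark strand, and whether exons of the pair overlap was not examined.

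Among the tested chains Col9a3 had the lowest adjusted p of those with a positive fold change. It was at 1.19, 2.21, 0.948, 2.43 and 0.972 CPM in IgG and at 8.28, 6.28, 10.6, 7.60 and 0.944 CPM in anti-Ang2 libraries. Anti-Ang2 5 was the lowest of the 10 libraries, and the other 4 anti-Ang2 libraries lay above every IgG library. The log2 fold change of 2.11 ± 0.54 had an edgeR adjusted p of 0.0533, and 2.39 ± 0.35 without anti-Ang2 5 had 0.00510. That fit leaves out the library that went against the rise, so its p supports nothing further. With any other library left out the edgeR adjusted p was 0.0678 to 0.139. Col9a3 overlaps Tcfl5 on the opposite strand. Col9a1 had 0 counts in all 5 IgG libraries, which allows up to 0.0121 CPM over the group (3 counts, counting error only), and 41, 11, 27, 27 and 0 counts in the anti-Ang2 libraries. It did not pass the filter of the test with all 10 libraries. Without anti-Ang2 5 it passed, through the libraries where it is high, and had an edgeR adjusted p of 0.0109, which this selection fixes and which supports nothing further. Col9a2 was at 0 to 81 counts per library, with a log2 fold change of -0.38 ± 1.10.

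The same 3 libraries had the highest sums of melanoma markers (5580, 3976 and 4573 CPM, others 269 to 1862). They also had the highest sums of 6 Schwann cell markers (289, 207 and 282 CPM, others 21.3 to 154). Without anti-Ang2 4 and 5, 5 chains were higher, namely Col2a1 (2.90 ± 0.58, edgeR adjusted p = 0.0215), Col16a1 (1.59 ± 0.38, 0.0395), Col9a3 (2.42 ± 0.38, 0.00917), Col9a1 (0.0230) and Col4a6 (1.15 ± 0.27, 0.0383). Over all genes this fit called 531 of 17121 higher. Col2a1, Col16a1 and Col4a6 were seen to be low in the 2 libraries left out, and Col9a3 and Col9a1 in anti-Ang2 5. Col9a1 also passed the filter only through the libraries where it is high. The calls restate these patterns and give them no further support. With the melanoma sum as a covariate in all 10 libraries the log2 fold changes were -0.78 ± 1.07 for Col2a1, -0.45 ± 0.47 for Col16a1, -0.03 ± 0.68 for Col10a1, -1.05 ± 1.04 for Col11a1, 0.91 ± 0.62 for Col9a3 and -0.76 ± 0.61 for Col4a6. None passed (adjusted p 0.580 to 0.991). Without anti-Ang2 1, 2 and 3 they were -0.95 ± 0.88, -0.41 ± 0.46, -0.11 ± 0.76, -0.93 ± 1.42, 1.46 ± 0.71 and -0.97 ± 0.47 in the same order.

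**Figure D4:**
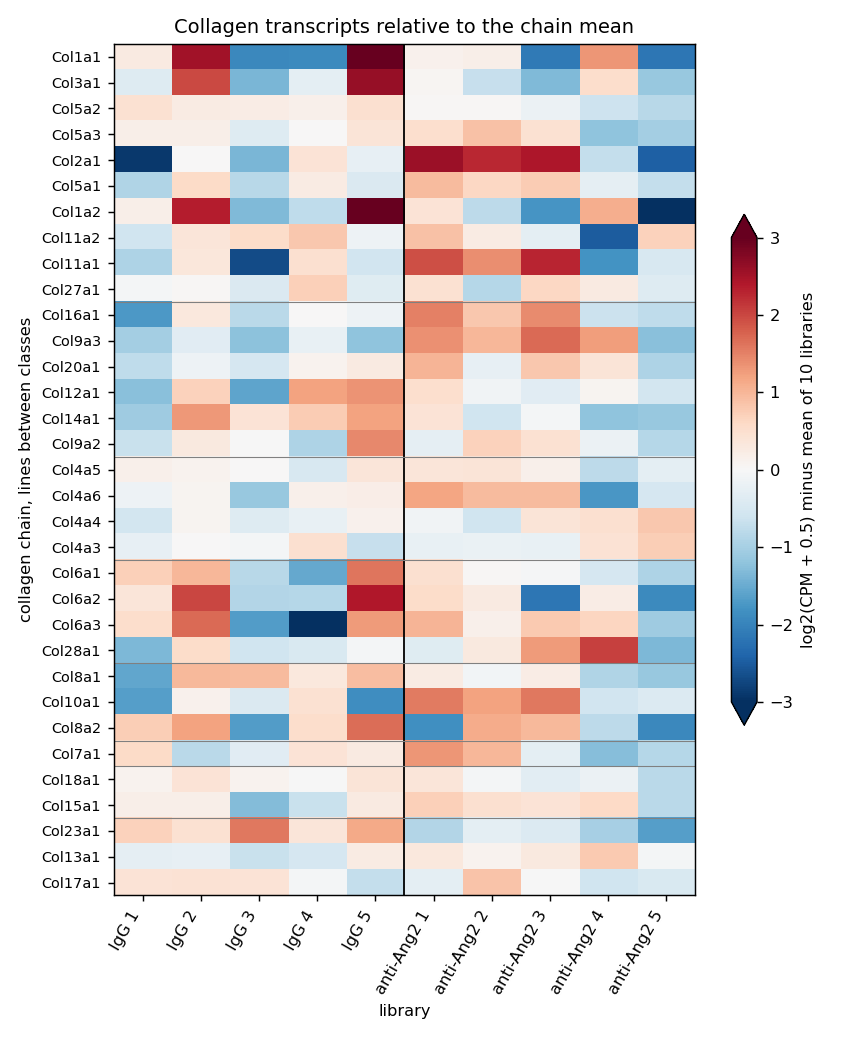
Level of the 33 tested chains in each library, as log2(CPM + 0.5) minus the mean of the chain over the 10 libraries, with colours ending at 3 in either direction. Red cells of Col1a1, Col1a2, Col3a1 and Col6a2 fall in IgG 2 and IgG 5, those of Col2a1, Col11a1 and Col16a1 in anti-Ang2 1, 2 and 3, and Col23a1 is red in the IgG and blue in the anti-Ang2 libraries.

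The multiplexins Col18a1 and Col15a1 link basement membranes to the matrix around them. Col18a1 was at 1693, 2096, 1696, 1559 and 2049 CPM in IgG and at 2033, 1502, 1257, 1405 and 906 CPM in anti-Ang2 libraries. Anti-Ang2 1 lay within the IgG range and the other 4 anti-Ang2 libraries below it. The log2 fold change was -0.36 ± 0.18 (edgeR adjusted p = 0.340) and lay between -0.52 and -0.23 with any 1 library left out. Col18a1 (ENSMUSG00000001435.14) spans chromosome 10 from 77052178 to 77166548 on the minus strand and overlaps Slc19a1 and the pseudogene Gm7775 on the other strand. Col15a1 was at 28.2, 28.3, 9.82, 15.6 and 30.3 CPM in IgG and at 41.3, 35.0, 33.3, 37.9 and 14.1 CPM in anti-Ang2 libraries, with 4 anti-Ang2 libraries above every IgG library (0.53 ± 0.34, 0.469).

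The minor chains of collagen IV replace the ubiquitous ones in specialised basement membranes, alpha 3 to alpha 5 in that of the kidney glomerulus and alpha 5 with alpha 6 in skin and smooth muscle. The genes lie in head-to-head pairs, Col4a3 and Col4a4 71 bases apart on chromosome 1 and Col4a5 and Col4a6 1308 bases apart on chromosome X. Col4a5 was at 122, 118, 109, 78.4 and 140 CPM in IgG and at 141, 142, 122, 63.5 and 89.6 CPM in anti-Ang2 libraries, with means of 114 ± 22.7 and 112 ± 34.3 CPM (log2 fold change -0.03 ± 0.22, edgeR adjusted p = 0.968). Its neighbour Col4a6 was at 5.10 to 13.6 CPM in IgG and at 27.2, 23.3, 23.2, 3.16 and 8.07 CPM in anti-Ang2 libraries (0.63 ± 0.50, 0.567). The FPKM ratio of Col4a5 to Col4a6 ran from 7.12 to 25.5 in IgG and from 6.15 to 23.8 in anti-Ang2 libraries (exact permutation p = 0.429, adjusted p = 0.514). Col4a5 was thus the more abundant chain of the pair in every library. Col4a3 and Col4a4 were at 0.0256 to 1.23 CPM. Col4a1 and Col4a2, which lie outside the set, had log2 fold changes of -0.03 ± 0.14 and 0.05 ± 0.13.

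Collagen VIII forms open lattices under endothelium, for example in the cornea and in vessel walls. Col8a1 was at 8.66, 52.6, 51.3, 33.2 and 50.8 CPM in IgG and at 31.6, 24.9, 31.1, 14.0 and 11.7 CPM in anti-Ang2 libraries. IgG 1 was the lowest of all libraries, and the other 4 IgG libraries lay above every anti-Ang2 library. The log2 fold change was -0.79 ± 0.44 (edgeR adjusted p = 0.383). Its partner Col8a2 was at 0 to 5.63 CPM (-0.95 ± 1.20).

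The remaining tested chains were at low levels and did not pass. Col7a1, the anchoring fibril chain of skin, was at 0 to 2.57 CPM (log2 fold change 0.35 ± 1.03, edgeR adjusted p = 0.906). Col12a1, Col14a1 and Col20a1 (fibril-associated), Col27a1 and Col11a2 (fibril-forming) and Col28a1 (von Willebrand domain) had log2 fold changes of -0.61, -1.49, 0.68, 0.09, -0.13 and 1.62, with SE from 0.36 to 1.19. Outside the filter were 8 chains, Col9a1, Col22a1, Col24a1, Col6a4, Col6a5, Col6a6, Col25a1 and Col26a1, each at 107 counts or fewer in every library. Of these, Col6a4 and Col26a1 had counts in 1 library each, IgG 2 with 107 and IgG 4 with 21. Col22a1, a chain of tissue junctions, had 0, 7, 0, 2 and 0 counts in IgG and 61, 24, 0, 31 and 15 in anti-Ang2 libraries. Col24a1 had 10 or more counts in 5 libraries but did not pass the filter of the test.

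Genes that make, trim, bind and degrade collagens were examined as 4 lists. The shares of all tested genes called by edgeR were 2.8% lower and 1.34% higher. Their counts at an unadjusted p and by DESeq2 and limma-voom are given above. Of 11 tested genes of procollagen trimming and crosslinking, 2 fell and 0 rose (edgeR; at an unadjusted p under 0.05, 3 and 1; DESeq2 2 and 1; limma-voom 2 and 1). Their median was -0.57 on the log2 scale, and that of all tested genes 0.01. Both that fell encode proteases of the tolloid family, which remove the C-terminal propeptides of fibrillar procollagens. Bmp1, the main enzyme, was at 312, 409, 366, 308 and 402 CPM in IgG and at 233, 245, 229, 257 and 245 CPM in anti-Ang2 libraries (log2 fold change -0.57 ± 0.09, adjusted p = 0.00597). Tll1 was at 96.2, 213, 243, 137 and 195 CPM in IgG and at 46.7, 46.4, 25.1, 27.6 and 32.9 CPM in anti-Ang2 libraries (-2.31 ± 0.27, 0.00111). In both, every anti-Ang2 library lay below every IgG library. Tll1 passed with the melanoma sum and with the fibroblast sum as a covariate, and Bmp1 did not (-0.54 ± 0.13, adjusted p = 0.107, and -0.50 ± 0.13, 0.110). The call of Bmp1 was also lost without IgG 2 and 5 (0.0536) and without anti-Ang2 1, 2 and 3 (0.111).

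Of 22 tested genes of collagen synthesis and folding, 1 fell and 0 rose, a share near that of all tested genes (at an unadjusted p under 0.05, 3 and 2; DESeq2 2 and 1; limma-voom 2 and 0), with a median of 0.01. It was the lysyl hydroxylase and glycosyltransferase Plod3, at 231 ± 15.7 CPM (SD, n = 5) in the IgG group and 176 ± 16.2 CPM in the anti-Ang2 group, which did not overlap (-0.39 ± 0.08, edgeR adjusted p = 0.0207). The call of Plod3 was lost without IgG 2, IgG 3 or IgG 5 (adjusted p 0.0615, 0.0504 and 0.0569), while its log2 fold change stayed between -0.43 and -0.35 with any 1 library left out. It was also lost with the melanoma sum (-0.53 ± 0.11, 0.0520) with the fibroblast sum (-0.35 ± 0.11, 0.202) and without both IgG 2 and IgG 5 (0.171). Serpinh1, the collagen chaperone and the most abundant of the list, was at 0.18 ± 0.17 (0.657). Among 13 collagen receptors 0 passed by edgeR (3 higher and 0 lower at an unadjusted p under 0.05; DESeq2 2 higher and limma-voom 3 higher), with a median of 0.15, and the most abundant, Itgb1, was at -0.08 ± 0.09. Among 9 tested genes of collagen breakdown 0 passed (2 higher and 1 lower unadjusted; DESeq2 2 higher and limma-voom 2 higher), with a median of 0.11, and the most abundant, the protease Ctsl, was at 0.34 ± 0.09 (0.0708).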

How the data were processed

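RNA of sorted LEC from 10 tumour-bearing mice was sequenced after SMART-Seq v4 amplification, which does not mark strand, per the labels' protocols. STAR, featureCounts and DESeq2 were used with mm10, per the submitters' processing notes; versions, annotation and strand setting are not given in the sources used here. Per the file headers, the authors deposited raw gene counts, which entered every test, and FPKM, used for levels between genes and for ratios of chains. The deposited TPM sum to over the total that defines TPM, so the authors' TPM were treated as a relative score and not used. The authors' deposited baseMean (a signal) was not used. Log2 fold changes and p-values from the authors' table, as deposited, are quoted where named. There Col9a1, at 0 counts in IgG, has a log2 fold change of 0.05, while DESeq2 as run here gave 6.73. The unadjusted DESeq2 p was 8.26e-05 in both, so the deposited fold changes are not directly comparable in size with those fitted here. There were 0 columns of other samples.

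Counts were tested with edgeR 4.0.16 in R 4.3.3 (quasi-likelihood F test, TMM, filterByExpr with a minimum count of 10 and total of 15, treatment as the only factor), with Benjamini-Hochberg adjustment over all 16240 tested genes and a threshold of 0.05. The SE comes from the same test. Alternatives used DESeq2 1.42.0 and limma 3.58.1. Ratios and marker sums were compared by exact permutation of the 10 library labels, two-sided (smallest p 0.00794). Replicates are separate mice. The code was tested on simulated data. Coordinates are from GENCODE release M21, in which all 41 members had an entry, 31 of them with the same ID version. One library per mouse was made, totals were 38090933 to 83850341 counts, and without molecular identifiers intervals cover counting error only. Other steps ran in Python 3.11.15 with scipy 1.17.1, numpy 2.4.6 and pandas 2.3.3, and figures in matplotlib 3.10.9.

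The members, gene lists and tests were chosen with earlier results of these data known. Genes named in full are every called chain, the 10 of highest mean FPKM, the highest of each structural class and, of the pathway lists, each called gene and the one of highest FPKM. Other chains were chosen after their values were seen. Same-numbered libraries of the groups are different mice, so no pairing was assumed.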

Additional observations from a re-analysis of the deposited data

Results flagged for a closer look

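Of 54 groups of 5 values examined (13 named chains, 6 chain ratios and 8 marker sums, each in both groups), 2 held a library far from the other 4, where chance gives about 1 in 20 groups. Col26a1 was at 0.504 CPM in IgG 4 and at 0 counts in the other IgG libraries. With the others at 0, any count in IgG 4 would be flagged, so the rate of chance does not apply to that group. The sum of macrophage and monocyte markers was 197 CPM in IgG 1 and 52.0 to 84.7 CPM in the other IgG libraries.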

How the results depend on the processing

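The call of Col23a1 held under upper quartile scaling, both other filters, DESeq2, limma-voom with quality weights, the replicate block and each fit without 1 library, and was lost with a covariate. Chains higher numbered 2 with DESeq2, 1 with limma-voom and 5 without anti-Ang2 4 and 5. That last count, which includes Col9a1, follows from the choice of libraries and gives no further support. Chains lower numbered 2 with DESeq2 and with limma-voom, 0 with each of the 3 covariates (fibroblast sum, that sum without Dcn, melanoma sum) and 3 without anti-Ang2 1, 2 and 3. The chains in that last count had their higher anti-Ang2 levels in the libraries left out. Leaving out 1 library gave 0 to 2 higher and 1 lower. The 2 higher were Col9a3 and Col9a1 without anti-Ang2 5, the anti-Ang2 library where both were lowest.

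Over all genes, higher calls numbered 217 in the main analysis, 810 with DESeq2, 670 with limma-voom, 60 with the fibroblast sum, 110 with that sum without Dcn, 24 with the melanoma sum, 54 without IgG 2 and 5, 531 without anti-Ang2 4 and 5 and 55 without anti-Ang2 1, 2 and 3. Lower calls, 454 in the main analysis, numbered 880, 780, 131, 292, 91 and 156 in the same order, up to the fit without IgG 2 and 5. Without anti-Ang2 1, 2 and 3 they numbered 178, and their number without anti-Ang2 4 and 5 is not given here. Leaving out 1 library gave 82 to 326 higher and 259 to 468 lower. With the replicate block the counts were 82 higher and 268 lower over all genes and 0 and 1 among the chains; the numbers do not pair the mice (correlation of same-numbered deviations -0.125 to 0.113). The fibroblast sum without Dcn and the fits without several libraries were chosen after seeing the data.

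Uncalled values changed sign as follows, and the cause was not tested. Col4a5 was at 0.060 with limma-voom, 0.23 with the fibroblast sum, 0.11 without IgG 2 and 5 and 0.24 without anti-Ang2 4 and 5. Col5a3 was at -0.14 with the block, -0.88 with the melanoma sum, -0.41 with the fibroblast sum without Dcn and -1.24 without anti-Ang2 1, 2 and 3. Col7a1 was at -0.45, -1.65, -0.26 and -3.20 in the same fits. Col5a1 was at -0.64 with the melanoma sum, -0.18 with the fibroblast sum without Dcn and -0.34 without anti-Ang2 1, 2 and 3. Col16a1 was at -0.45 with the melanoma sum and -0.41 without anti-Ang2 1, 2 and 3. Without IgG 2 and 5, Col1a1 was at 0.88, Col3a1 at 0.27 and Col6a1 at 0.13, and Col6a1 at 0.16 with the fibroblast sum. Serpinh1 was at -0.28 with the melanoma sum, -0.15 with the fibroblast sum without Dcn and -0.16 without anti-Ang2 1, 2 and 3. The Col4a3 to Col4a4 ratio differed by -0.025 from counts. Without 1 library Col4a5 ranged from -0.13 to 0.12, Col5a3 from -0.20 to 0.26, Col7a1 from -0.31 to 0.68 and that ratio from -0.83 to 0.55.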
